A study of Mus musculus with 8 samples.

Results

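Far regions are stretches of open autosomal chromatin whose summit, the point of highest signal, lay more than 100 kb from every transcription start site (TSS) annotated to a coding gene or a long noncoding RNA gene. They were taken from ATAC-seq libraries, in which a transposase cuts accessible DNA, of alveolar macrophages (AMs) of adult mice. AMs are the resident macrophages of the lung airspaces. The 4 KO libraries (replicates 1_2, 1_3, 2 and 3) came from CD11cCre+ Rxrabfl/fl mice and the 4 WT libraries (replicates 1_2, 1_3, 3 and 4) from CD11cCre- Rxrabfl/fl mice, so both groups carried the floxed alleles of Rxra and Rxrb and only the first carried the Cre. The Cre is driven by the CD11c promoter, which is also active in dendritic cells and other CD11c-expressing cells. Peaks, the intervals called as accessible, were merged over the 8 libraries into 82424 regions, of which 80340 were autosomal and 70896 had a peak in at least 2 libraries. Of these 70896 regions, 3430 (4.84%) were far regions. Another 32779 lay 10 to 100 kb from a TSS, 18954 lay 1 to 10 kb away and 15733 lay within 1 kb. Just inside the limit lay a region 100.007 kb from a TSS, with a peak in 8 of 8 libraries, and just outside lay a region at 99.975 kb, with a peak in 3.

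The lists held between 60363 and 72484 peaks per library, and a total read count is not part of them. Signal was therefore read as the number of tags (read ends extended to 200 bp) stacked at a summit, which could be worked back for 100% of the peaks. Summit tags of KO replicates 1_2 and 1_3 differed by no more than counting noise (chi-square per degree of freedom of 0.983), as did those of KO replicates 2 and 3 (1.01), while the other pairs of the same genotype gave 1.11 to 1.99. No label says whether these pairs come from 1 animal. They were kept as separate samples, and where averaging each pair into 1 sample moves a result, that value is given beside it. With the pairs averaged, 6 samples remain, and the smallest p of tests that compare classes within samples (sign-flip tests) is 0.0312. The tests of KO against WT then have fewer KO samples, and their smallest p is larger than that. Of 12 AM marker genes, 9 had a promoter peak in all 8 libraries, Ear1 in 1, and Chil3 and Krt79 in 0. No promoter of the T cell, B cell or eosinophil markers had a peak, and Sftpc, Sftpb, S100a9, Ly6g and Fcnb were also at 0. Promoters of Epcam, Scgb1a1, S100a8, Cxcr2 and Ly6c2 had a peak in all 8 libraries and that of Ccr2 in 2. The study describes the AMs as sorted, and the part of other cells in the results was not tested. Within Rxra, 1 intronic region (chr2:27744546-27744950) carried 38 to 46 tags in the WT libraries and had no peak in any KO library.

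Open chromatin far from promoters is where enhancers are usually found. Enhancers are bound by transcription factors and can act on genes over long distances by looping of the DNA, so that the nearest gene is not always the target. Genes that control development and cell identity often lie beside long stretches without other genes, and such stretches can hold many enhancers. In macrophages, PU.1 opens enhancers together with C/EBP, AP-1 and RUNX factors. Retinoid X receptors (RXRs) bind repeats of a short nuclear receptor element as dimers, with 1 base between the repeats (DR1) for partners such as PPARγ and 4 bases (DR4) for the liver X receptors.

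Sequences of 7 far regions are shown. The Plpp3 region has the strongest signal, and the Kcnj16, Bcat1, Gpr149 and Tox3 regions the largest changes between genotypes. The Maf and Nr4a3 regions were picked among lower regions near these genes because they hold DR1 and DR4 matches or a PU.1 match. The largest change near each of these genes lay in another region, without any of the patterns. The 7 windows were read from the GRCm38 reference, 100 bases to each side of the summit, and were chosen after their values were seen. Capitals mark matches, on either strand, to PU.1 (GAGGAAGT), AP-1 (TGANTCA), RUNX (TGTGGTT), the E-box (CACGTG), or DR1 and DR4, that is AGGTCA repeated after 1 or 4 bases with at most 2 mismatches.
Plpp3 region, chr4:105263741-105263941, plus strand: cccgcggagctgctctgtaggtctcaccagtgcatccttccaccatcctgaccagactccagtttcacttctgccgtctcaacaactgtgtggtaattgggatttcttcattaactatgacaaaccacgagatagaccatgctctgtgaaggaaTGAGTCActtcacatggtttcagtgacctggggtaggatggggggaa
Kcnj16 region, chr11:110702174-110702374, plus strand: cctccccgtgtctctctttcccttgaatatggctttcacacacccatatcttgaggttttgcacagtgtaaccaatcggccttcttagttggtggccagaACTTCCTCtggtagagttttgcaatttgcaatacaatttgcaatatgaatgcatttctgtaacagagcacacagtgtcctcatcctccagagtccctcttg
Bcat1 region, chr6:144917155-144917355, plus strand: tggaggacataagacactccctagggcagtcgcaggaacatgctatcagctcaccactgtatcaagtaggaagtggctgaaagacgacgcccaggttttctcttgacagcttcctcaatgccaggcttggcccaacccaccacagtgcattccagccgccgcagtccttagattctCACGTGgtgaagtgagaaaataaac
Maf region, chr8:115398097-115398297, plus strand: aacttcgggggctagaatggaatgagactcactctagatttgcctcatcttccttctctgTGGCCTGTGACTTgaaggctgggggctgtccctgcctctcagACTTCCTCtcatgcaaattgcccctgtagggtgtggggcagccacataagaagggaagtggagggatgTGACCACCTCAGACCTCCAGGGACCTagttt
Nr4a3 region, chr4:47838536-47838736, plus strand: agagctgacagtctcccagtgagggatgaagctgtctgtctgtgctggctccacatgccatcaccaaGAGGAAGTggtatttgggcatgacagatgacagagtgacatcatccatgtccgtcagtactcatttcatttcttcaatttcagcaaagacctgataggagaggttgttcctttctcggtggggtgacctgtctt
Gpr149 region, chr3:62824007-62824207, plus strand: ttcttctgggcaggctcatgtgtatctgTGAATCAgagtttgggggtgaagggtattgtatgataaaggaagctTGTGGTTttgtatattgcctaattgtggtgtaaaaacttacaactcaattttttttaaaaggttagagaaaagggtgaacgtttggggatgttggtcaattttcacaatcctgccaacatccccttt
Tox3 region, chr8:89950751-89950951, plus strand: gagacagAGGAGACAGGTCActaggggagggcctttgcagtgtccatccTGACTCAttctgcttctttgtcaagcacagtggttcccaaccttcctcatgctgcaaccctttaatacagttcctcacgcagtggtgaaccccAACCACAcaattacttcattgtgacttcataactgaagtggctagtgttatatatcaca
The Plpp3 region was the strongest far region and held 1 AP-1 match. The Kcnj16 and Bcat1 regions fell most in KO AMs, with 1 PU.1 match and 1 E-box match. The Gpr149 and Tox3 regions rose most, each with 1 AP-1 and 1 RUNX match, and the Tox3 region also held 1 DR1 match. The Maf region, lower in KO AMs, held 1 DR1, 2 DR4 and 1 PU.1 matches, of which the DR4 matches overlap, and the Nr4a3 region, also lower, held 1 PU.1 match. A match describes the letters of the window and not a bound site.

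Far regions were sparse in the genome. Bases more than 100 kb from every TSS made up 654.236 Mb, or 27.3% of the autosomal sequence, and held 5.24 far regions per Mb. The part of the genome 10 to 100 kb from a TSS held 26.7 regions per Mb. Of the far regions, 1664 (48.5%) were intronic, 45 (1.31%) exonic and 1721 (50.2%) intergenic. Gene bodies made up the smaller part of the far sequence (178.71 Mb) and were the denser part, with 9.56 far regions per Mb against 3.62 in the 475.525 Mb between genes. Distance from the nearest TSS had a median of 146.8 kb, and 1786 of the far regions lay between 100 and 150 kb. The intronic share was 57.7% there, 39.7% between 200 and 300 kb and 14.3% among the 91 regions beyond 500 kb. Such long distances inside a gene exist only in the longest genes. The farthest region lay 1291.85 kb from any TSS, on chromosome 1, with B3galt2 as the nearest protein-coding gene at 1692.41 kb. It carried 35, 52, 34 and 30 tags in the WT libraries and 27, 23, 21 and 26 in the KO libraries, and so was open in all 8. Far regions were often close to each other. Another far region lay within 10 kb for 58.4% of them and no other lay within 100 kb for 13.5%.

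Intronic far regions lay in 421 genes, 401 of them protein-coding, and the 10 leading genes held 13.1% of them. Dock4, which encodes an activator of small GTPases of the Rac family, led with 30 far regions. Arid1b, a subunit of the BAF chromatin remodeling complex, held 28, and Itpr2, an intracellular calcium release channel, held 25. Akap13, a kinase anchoring protein, followed with 22 and Lpp, an adhesion protein, with 21. Rad51b, which acts in DNA recombination, held 19, and the transcription factor gene Nfia, the heparan sulfate synthesis gene Ext1 and the adhesion receptor gene Adgrv1 held 18 each. Gm20388 also held 19, but this gene model spans 4434.88 kb and many smaller genes, so its regions may belong to other genes. All 10 had a promoter peak in all 8 libraries. Gene-body sequence was counted as open in a library when any gene covering it had an open promoter. All far sequence under Gm20388 therefore counted as open. Across libraries, open gene-body sequence held 16.3 ± 0.657 far regions per Mb and the other gene-body sequence 2.83 ± 0.231 (SD, n = 8). The density was 5.79-fold higher with an open promoter, between 5.25- and 6.15-fold in every library (8 of 8, exact sign-flip test over libraries, two-sided, p = 0.00781, the smallest it can give). The libraries share most of these genes and regions, so this p-value does not measure chance over genes or regions. Of protein-coding genes with far sequence and a promoter open in all 8 libraries, 56.2% (250 of 445) held an intronic far region, against 26.0% (111 of 427) of those whose promoter was open in none. Cntnap2, a neuronal adhesion gene whose promoter had no peak, still held 12, among them the intronic regions farthest from a TSS, at 1084.65 and 1089.76 kb.

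Between genes, 518 stretches from one TSS to the next held at least 1 intergenic far region. They are named by the nearest protein-coding genes on either side. The richest, 1055.6 kb long, between Ptger4, the prostaglandin E2 receptor EP4, and Dab2, an endocytic adaptor, held 37 far regions, 26 of them open in all 8 libraries. The stretch between Mmadhc and Rnd3 held 27 and that between Eef2kmt and the splicing factor gene Rbfox1 held 26. Next came St3gal1 to Zfat with 24, Runx1 to Setd4 with 23, Chd7 to Clvs1 with 22, and Klf4 to Gm26657 with 22. The last 3 of the leading 10 were Zfp608 to Gramd3 with 19, Setbp1 to Pard6g with 18 and Kcnrg to Dleu7 with 17. Far regions beside Klf4, a macrophage transcription factor gene, were the strongest of the 10 stretches, with a median strength percentile of 58.3. Strength percentile is the rank of a peak's −log10 q-value in its library, on a scale that ends at 100, averaged over the libraries with a peak. On this averaged scale, all far regions had a median of 30.5.

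**Figure D1:**
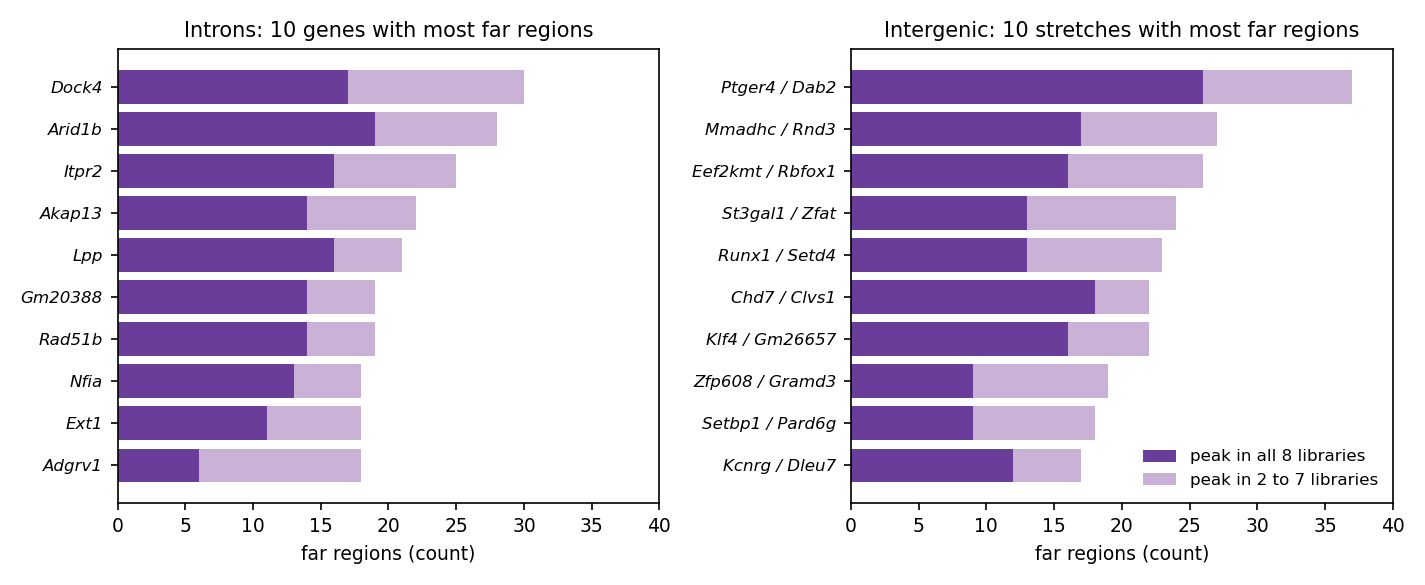
Number of far regions in the introns of the 10 leading genes (left) and in the 10 leading intergenic stretches, named by the nearest protein-coding genes on either side (right); dark bars count regions with a peak in all 8 libraries and light bars those with a peak in 2 to 7. Dock4 leads the genes with 30 and the stretch between Ptger4 and Dab2 leads the intergenic stretches with 37.

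Of 58 genes listed as AM regulators and signal genes, 13 (22.4%) held an intronic far region or were the nearest protein-coding gene of an intergenic one, against 4.39% of all autosomal protein-coding genes. Together they accounted for 104 far regions. Klf4 and Runx1 had 23 each, Nfia 18, Zeb2 13 and Maf 8. Foxo1 and Id2 had 5 each, Nr4a3 3 and Tcf4 2, and Jarid2, Klf6, Tfec and Tgfbr2 had 1 each. The other 45 genes had none, among them Spi1, which encodes PU.1, and Pparg. The list was assembled with earlier results of these data known, and genes beside long gene-free stretches have more far sequence to hold such regions.

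The strongest far region lay 106.494 kb from the TSS of Plpp3, a lipid phosphate phosphatase, with a strength percentile of 99.7. It carried 523, 608, 542 and 439 tags in WT and 508, 470, 429 and 438 in KO. The other 4 of the strongest 5 lay in March4, a ubiquitin ligase gene, and in the introns of Plxdc2, Jazf1 and Vps13b, with percentiles of 98.9 to 99.4. As a class, far regions were weaker than those closer to genes. Their median strength percentile per library was 42.5 ± 0.854, against 45.2 ± 0.920 for regions 10 to 100 kb from a TSS and 73.7 ± 0.793 within 1 kb (SD, n = 8). The difference from the regions 10 to 100 kb away was −2.76 percentile points and negative in 8 of 8 libraries (exact sign-flip test, two-sided, p = 0.00781, adjusted 0.00977 over 15 features). It was −0.416 (exact p = 0.125) when TSSs of every annotated gene type, pseudogenes and small RNAs included, were counted, which left 711 far regions open in all libraries. Libraries share most far regions, so the p-values in this paragraph do not measure chance over regions. Intronic far regions had a median of 42.0 ± 1.24 and intergenic ones 42.8 ± 0.573. That difference of −0.846 (exact p = 0.0312, adjusted 0.0391, lower in 6 of 8 libraries) turned to 1.75 with regions more than 50 kb from a TSS and lost its call when the agreeing KO pairs were averaged (−0.684, exact p = 0.125). It also did without WT replicate 4 (−0.888), KO replicate 2 (−0.700) or KO replicate 3 (−0.778). With each region counted once, on the scale averaged over libraries, the order was reversed. The medians were then 30.9 for intronic and 29.7 for intergenic far regions.

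Far regions were shared by fewer libraries. A peak in all 8 libraries was found for 1832 far regions (53.4%), against 60.2% of regions 10 to 100 kb from a TSS and 81.9% within 1 kb. A peak in only 2 libraries was found for 9.80% of far regions. Among the regions with a peak in a given library, 68.3% ± 5.33 of the far regions were open in all 8, against 73.6% ± 4.33 of those 10 to 100 kb away (SD, n = 8). The difference was −5.23 points, negative in 8 of 8 libraries (exact sign-flip test, two-sided, p = 0.00781, adjusted 0.00977). The regions open in all 8 are the same set in each library, so the 8 differences are not independent. They largely repeat the pooled contrast of 53.4% against 60.2%, and the p-value does not measure chance over regions. The lower share was also seen within classes of strength. When all regions were split into 5 equal classes by strength, the middle class was open in all 8 libraries for 83.8% of far regions and 90.4% of regions 10 to 100 kb away. The classes are broad, with 28.0% of far regions open in all 8 in the class below and 98.5% in the class above. Strength was not matched inside a class. The share was 54.5% for intronic and 52.1% for intergenic far regions.

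**Figure D2:**
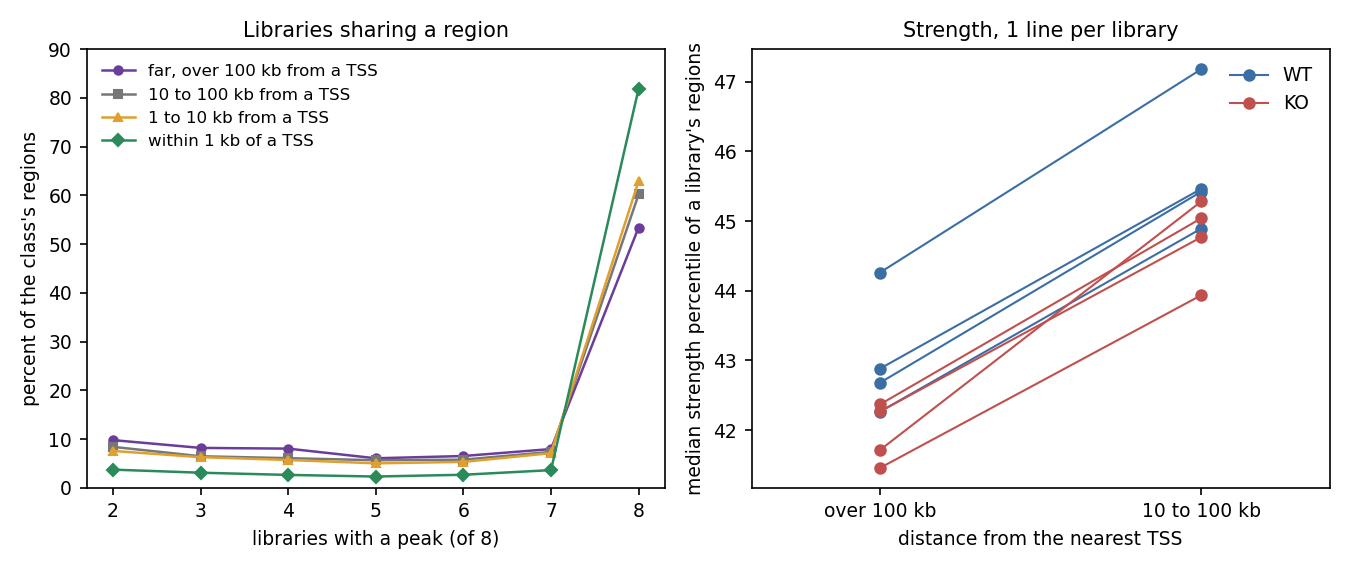
Left, the percent of regions in each distance class that had a peak in 2 to 8 libraries; right, the median strength percentile of far regions and of regions 10 to 100 kb from a TSS, with 1 line per library (WT blue, KO red; the axis does not start at 0). Far regions reach 53.4% at 8 libraries, the lowest of the 4 classes, and every line rises from far to nearer regions.

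The sequence at the summits differed between the distance classes. A PU.1 match within 100 bp of the summit was found in 15.9% ± 0.296 of a library's far regions and in 12.9% ± 0.108 of its regions 10 to 100 kb from a TSS (SD, n = 8). The difference was 3.05 points and positive in 8 of 8 libraries. Matches to CTCF, the factor at the anchors of many chromatin loops (CCANNAG followed by NNGGC), were rarer in far regions, at 3.79% ± 0.200 against 5.87% ± 0.289. E-box matches were also rarer, at 3.53% ± 0.120 against 4.91% ± 0.0892. Each of these differences held in 8 of 8 libraries (exact sign-flip test, two-sided, p = 0.00781, adjusted 0.00977 over 15 features), and each kept its direction and its call under every alternative run. A match was called once per region, and most far regions of a library were open in all 8. The 8 library shares are therefore not independent, and the p-values in this paragraph do not measure chance over regions. In all 70896 regions, the shares were 10.7% for PU.1, 5.86% for CTCF and 5.37% for the E-box, and 11.9% for AP-1, 8.97% for RUNX, 4.17% for DR1, 2.63% for DR4 and 2.27% for C/EBP. The other patterns were less steady. AP-1 matches were more frequent by 0.784 points and RUNX matches by 0.887 points, yet AP-1 turned to −0.174 points with regions more than 50 kb away and RUNX to −0.780 with regions more than 200 kb away. RUNX was also at 0.0182 points (exact p = 0.859) when TSSs of every gene type were counted. The difference, far less nearer, was −0.403 points for DR1 and 0.153 points for C/EBP (TTNCGNAA), both of which turned sign with regions more than 200 kb away, at 0.0664 and −0.113 points. For DR4 it was 0.0234 points and did not pass (exact adjusted p = 0.562), but it passed at 0.573 points when TSSs of every gene type were counted and was negative under other limits. A control pattern, DR1 written backwards, differed by 0.144 points and did not pass (exact adjusted p = 0.0670), but passed at 0.621 points when TSSs of every gene type were counted. Far summits were poorer in G and C, at 46.6% ± 0.0795 against 49.1% ± 0.0737. Within the far class, PU.1 matches were fewer in introns (14.3% ± 0.421) than between genes (17.2% ± 0.465), in 8 of 8 libraries (exact p = 0.00781, adjusted 0.0117). DR1 matches were found in 5.08% ± 0.268 of the intronic and 3.73% ± 0.214 of the intergenic far regions, a difference of 1.36 points in 8 of 8 libraries (exact p = 0.00781, adjusted 0.0117). It was 0.0768 (exact p = 0.383) with regions more than 50 kb from a TSS and −1.01 with regions more than 200 kb away. Repeat-masked bases made up 12.3% ± 0.288 of the intronic and 14.8% ± 0.211 of the intergenic windows.

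No measure of the far class as a whole separated KO from WT libraries after adjustment. Far regions made up 4.43% ± 0.0823 of the regions open in a KO library and 4.56% ± 0.185 in a WT library (SD, n = 4 each; exact permutation test over 70 labelings, two-sided, p = 0.229). Their intronic share was 49.3% ± 0.320 in KO and 49.2% ± 0.496 in WT (exact p = 0.857). Their median strength percentile was 42.0 ± 0.437 in KO and 43.0 ± 0.865 in WT (exact p = 0.0857). The smallest adjusted p over 6 such measures was 0.343 (exact permutation test), and the smallest raw p that 4 against 4 allows is 0.0286. None of the 9 sequence patterns passed either. C/EBP matches came closest, in 2.54% ± 0.0661 of KO and 2.42% ± 0.0224 of WT far regions, with no overlap between the groups (exact p = 0.0286, adjusted 0.257). That raw p is the smallest that 4 against 4 allows. A single pattern, or a single one of the 6 measures, could therefore not have passed alone after adjustment. DR1 matches were found in 4.36% ± 0.188 of KO and 4.43% ± 0.177 of WT far regions.

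Individual far regions did differ, and more often than the average region. A peak in all 4 WT libraries and no KO library was found for 63 far regions (1.84%, beside 0.831% of all regions), and the reverse for 33 (0.962%, beside 0.258% of all regions). Taken in either direction the share was 2.80%, against 1.28% of regions 10 to 100 kb from a TSS and 1.09% of all regions. In the middle class of strength it was 3.68% of far regions and 1.06% of those 10 to 100 kb away. Intergenic far regions were one-sided in 3.78% and intronic ones in 1.86%. WT-only far regions lay at a median of 160.1 kb from a TSS and KO-only ones at 233.6 kb. No test is attached to these counts, and a library without a peak may still hold signal below the threshold. The WT-only count was 110 without WT replicate 4 and 99 without KO replicate 1_3, which relax the rule by 1 library, and between 65 and 110 over all libraries left out.

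The strongest WT-only far regions lay in a few places. Of the 5 strongest, 3 lay within 40 kb of each other in the stretch between Map2k6 and the potassium channel gene Kcnj16 on chromosome 11. The TSS nearest to them was that of a noncoding gene, Gm11682. The region at chr11:110715176-110715740 carried 55, 66, 65 and 46 tags in WT, the one at chr11:110727623-110728151 carried 54, 59, 53 and 41, and the one at chr11:110692835-110693236 carried 56, 60, 61 and 40. None of the 3 had a peak in any KO library. The others were an intergenic region near Cdh26 with 45, 50, 49 and 46 tags and an intronic region of Zfhx3, a homeobox transcription factor gene, with 34, 75, 45 and 31. KO-only regions were grouped as well. The strongest, near the orphan receptor gene Gpr149 (chr3:62789910-62790353), carried 98, 76, 77 and 77 tags in KO, and a neighbor at chr3:62781026-62781360 carried 34, 39, 26 and 27. A region near Tox3, an HMG-box gene, carried 67, 65, 59 and 45. The other 2 lay 30.6 kb apart, with Brinp1 and Cdk5rap2 as their nearest protein-coding genes. They carried 42, 37, 34 and 30 tags and 41, 25, 43 and 39 tags. In none of these did any WT library have a peak.

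Differences in signal were tested at the regions open in all 8 libraries, which leaves the one-sided regions out. Summit tags were compared with limma on log2(tags + 0.5), centered on each library's median, over all 46378 such regions. Of the 1832 far regions tested, 148 (8.08%, beside 6.06% of all regions tested) were higher in KO AMs and 234 (12.8%, beside 6.81% of all) were lower, at an adjusted p under 0.05. Together 20.9% of far regions were called, against 14.5% of regions 10 to 100 kb away, 9.81% within 1 kb and 12.9% of all. Called far regions differed by a median of 0.65 on the log2 scale, and 59 far regions differed by more than 2-fold. The median log2 fold change (KO over WT) was −0.00 over all far regions and 0.05 over all regions. With libraries scaled by total tags, these medians were −0.04 and 0.01. The level of both is set by the scaling, so they cannot show whether signal as a whole shifted. With the agreeing KO pairs averaged, 77 far regions were higher and 151 lower, all of them among the 148 and 234. That is 12.4% of far regions, beside 6.05% of all regions under the same averaging. Over all regions the split was 2812 higher and 3160 lower, and 2031 and 3805 when libraries were scaled by total tags, which left 121 far regions higher and 271 lower. Far regions were called more often within classes of mean tags too. In the middle class of 5 by mean tags, 9.54% of far regions were higher and 18.3% lower, against 6.34% and 10.9% of regions 10 to 100 kb away. Of 907 intronic far regions tested, 59 were higher and 118 lower, and of 897 intergenic ones, 88 and 112. Calls of higher signal in KO made up 6.44% of far regions 100 to 150 kb from a TSS and 16.7% of the 114 tested between 300 and 500 kb, where 7.02% were lower. Beyond 500 kb, 5 of 46 were higher (10.9%) and 7 lower (15.2%).

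**Figure D3:**
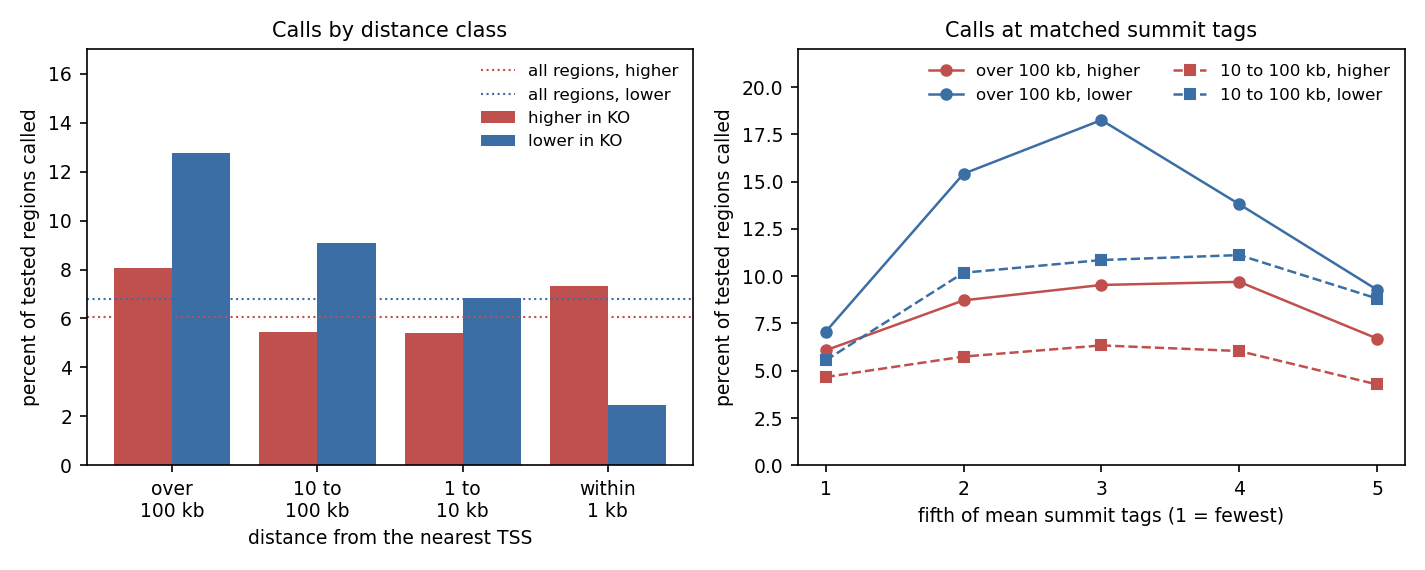
Percent of tested regions called higher (red) or lower (blue) in KO AMs, by distance class with dotted lines for all regions (left), and in 5 classes of mean summit tags for far regions (solid) and regions 10 to 100 kb from a TSS (dashed) (right). Far regions show 8.08% higher and 12.8% lower, and both solid lines lie above their dashed partners in all 5 classes.

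**Figure D4:**
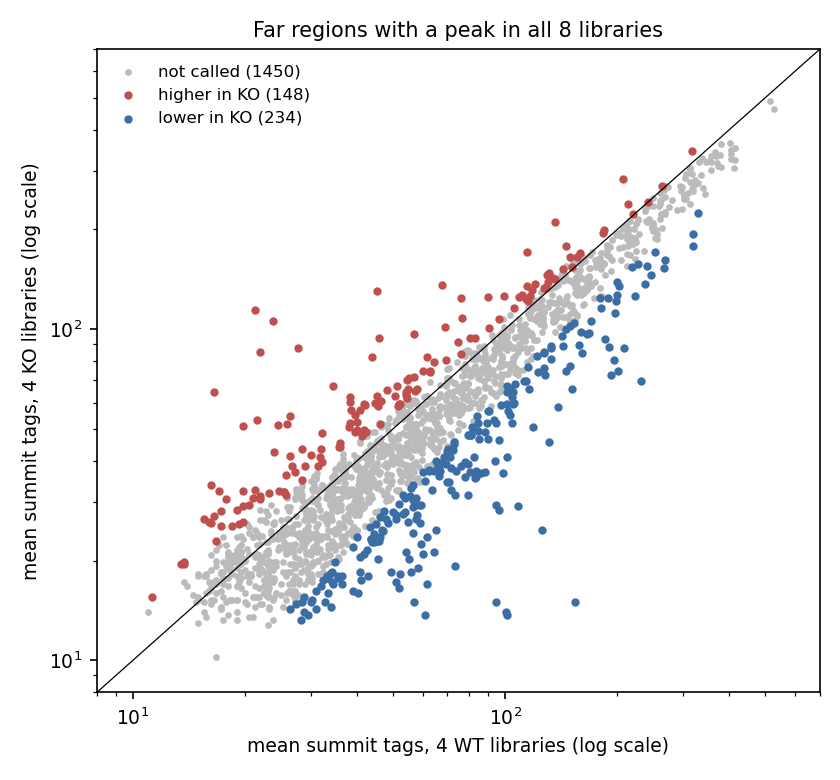
Mean summit tags of the 1832 tested far regions in the 4 WT libraries (horizontal, log scale) and the 4 KO libraries (vertical, log scale); red points were called higher in KO, blue points lower and gray points not called, and the line marks equality before centering. The 148 higher and 234 lower regions lie on both sides over the whole range of tags.

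The far region that fell most lay in the same stretch between Map2k6 and Kcnj16. It carried 157, 173, 169 and 117 tags in WT and 21, 15, 10 and 14 in KO, a log2 change of −3.13 ± 0.165 (SE; limma, adjusted p = 3.06e-19). Its lowest WT library stood well above its highest KO library. The next lay in 1 stretch with another of the 5, between Sox5 and Bcat1, a branched-chain amino acid transaminase. They carried 109, 110, 106 and 80 tags in WT against 11, 19, 12 and 13 in KO, and 93, 127, 77 and 82 against 15, 16, 15 and 14. Their log2 changes were −2.63 and −2.37. A region 701.254 kb from Inhba, which encodes a subunit of activin, went from 100, 130, 103 and 70 tags in WT to 14, 14, 12 and 16 in KO (log2 change −2.56). The last of the 5, between Eef2kmt and Rbfox1, carried 116, 143, 141 and 102 tags in WT and 22, 28, 24 and 25 in KO (−2.09). All 5 were intergenic. None of the groups overlapped, which follows from picking the largest falls among called regions and adds nothing to the calls.

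The far regions that rose most were intergenic as well, and 3 of the 5 lay in 1 stretch. Near Gpr149, a region rose from 25, 22, 21 and 17 tags in WT to 132, 130, 103 and 92 in KO, a log2 change of 2.62 ± 0.155 (SE; limma, adjusted p = 1.66e-17). Between Sall1 and Tox3, a region rose from 18, 29, 24 and 24 tags to 112, 110, 111 and 90 (log2 change 2.37). Its neighbors there rose from 19, 17, 14 and 16 to 67, 65, 59 and 68 (2.17) and from 25, 24, 29 and 33 to 96, 96, 85 and 74 (1.87). The remaining region, 686.581 kb from Trhde, a peptidase gene, rose from 21, 38, 17 and 12 to 100, 99, 75 and 68 (2.26). Every KO library was above every WT library in each of the 5, which again follows from picking the largest rises among called regions.

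Neighboring far regions that differed mostly went the same way. Counting the called and the one-sided together, 478 far regions differed, 181 (37.9%) higher and 297 lower in KO AMs. Of the 118 pairs of neighbors among them that lay within 50 kb, 114 (96.6%) went the same way. Among regions 10 to 100 kb from a TSS, where 35.7% of those that differed were higher, 727 of 840 such pairs (86.5%) did. One-sided far regions formed 9 runs of 2 or more within 50 kb, holding 25 of the 96, and no run mixed directions. In the following counts a stretch runs from TSS to TSS with its intronic far regions included. The stretch between Map2k6 and Kcnj16 held 7 far regions, of which 5 were WT-only and 1 was called lower. The stretch between Sall1 and Tox3 held 13, of which 4 were KO-only and 3 called higher. All 4 far regions between Gpr149 and Mme, which encodes neprilysin, differed, 3 of them KO-only and 1 called higher. Between Eef2kmt and Rbfox1, 8 of 32 differed, 3 of them WT-only and 5 called lower. At Zmat4, 3 KO-only regions lay within 4.29 kb, and at Gpc6, a glypican gene, 2 WT-only regions lay within 2.19 kb. Other stretches were mixed, with 2 higher and 3 lower between St3gal1 and Zfat, 1 and 6 between Wwox and Maf, and 1 and 3 between Runx1 and Setd4. These places were picked out by their differences, so their counts are a description.

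**Figure D5:**
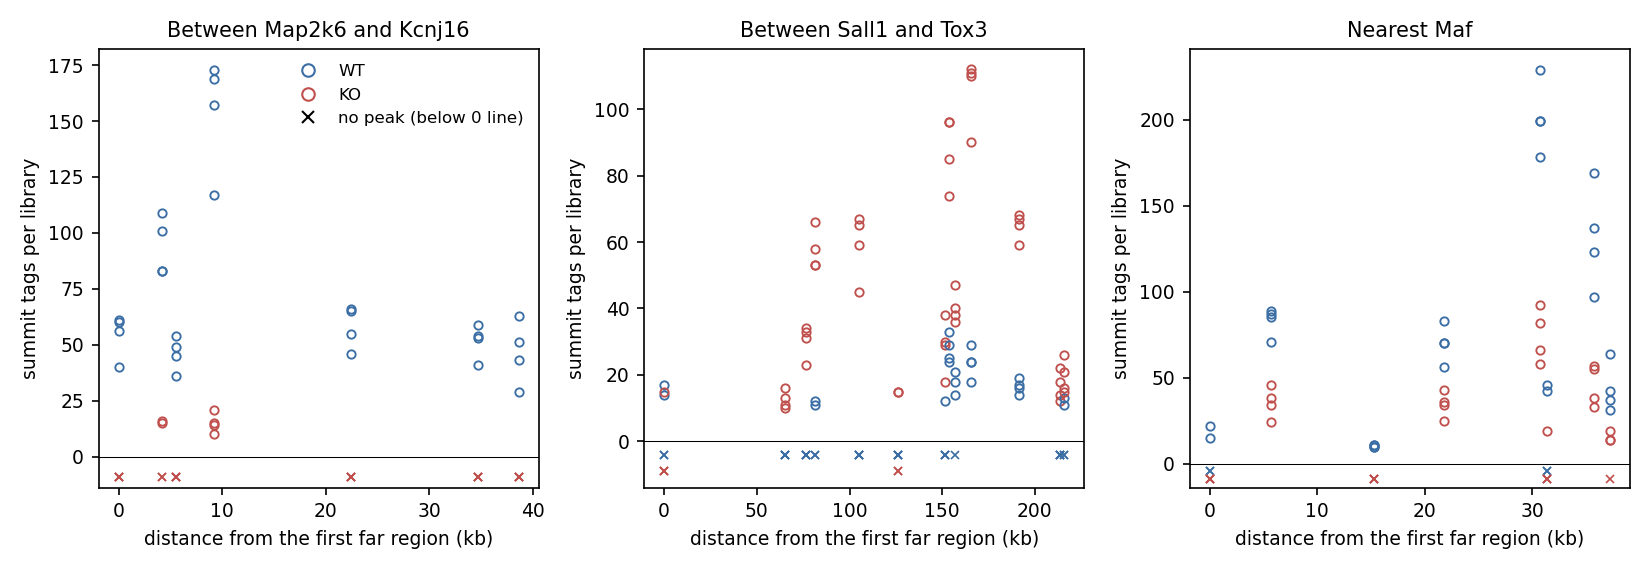
Summit tags per library (open circles, WT blue, KO red) of the far regions between Map2k6 and Kcnj16, between Sall1 and Tox3, and nearest to Maf, against the distance from the first far region of each stretch in kb; crosses under the 0 line mark libraries without a peak. At the region that fell most, WT libraries reach 173 tags and KO libraries 21, and at the Tox3 region that rose most, KO libraries reach 112 and WT libraries 29.

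Among the listed AM regulators, far regions near Maf and Nr4a3 were lower in KO AMs. Maf encodes c-MAF, a macrophage lineage factor. All 4 of its intergenic far regions that could be tested were called lower, out of 8 in total, and 1 more was WT-only. The 4 lay 278.887 to 308.899 kb from the nearest Maf TSS, and a noncoding TSS was closer to each. A far region in an intron of Wwox, counted for Wwox although Maf is its nearest protein-coding gene by TSS, was called higher, from 19, 26, 10 and 12 tags in WT to 29, 22, 19 and 22 in KO (log2 change 0.75). The strongest of the 4 lower regions carried 199, 229, 199 and 178 tags in WT and 82, 92, 58 and 66 in KO. Its log2 change was −1.22 ± 0.108 (SE, limma, adjusted p = 1.06e-11). The largest change was from 123, 169, 137 and 97 to 55, 57, 38 and 33 (−1.30), and the region with DR1 and DR4 matches shown above went from 89, 87, 85 and 71 to 46, 34, 24 and 38 (−1.02). In each of these called regions the groups did not overlap, which adds nothing to the calls. Nr4a3 encodes an orphan nuclear receptor, and both of its tested far regions, 202.731 and 206.517 kb from its TSS, were lower. They went from 68, 82, 62 and 34 tags to 22, 21, 12 and 13 (−1.58) and from 141, 165, 148 and 99 to 69, 46, 70 and 48 (−1.02). All 6 lower calls near Maf and Nr4a3 kept their direction and passed in each of 14 refits, KO pairs averaged included. Klf4 had 1 higher and 0 lower of 17 tested, between −0.11 and 0.36 on the log2 scale. Runx1 had 1 higher and 3 lower of 13, Nfia 1 higher of 13, Zeb2 1 lower of 7 and Foxo1 1 higher of 2. The called region of Zeb2 lay 1544.67 kb from its TSS and that of Foxo1 366.244 kb, both with a noncoding TSS closer. Those of Runx1 lay 205.664 to 385.543 kb away. Id2, Jarid2 and Klf6 had no call among 4 tested in all. Of the leading host genes, Arid1b had 4 lower and 0 higher of 19 tested, Dock4 3 lower of 17 and Lpp 2 higher and 1 lower of 16, while Akap13 had no call among 14.

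Sequence patterns were counted in the far regions that differed. A DR1 match was found in 15 of 234 lower far regions (6.41%), in 3 of 148 higher ones (2.03%) and in 4.42% of the 1832 tested. For DR4 the counts were 11 of 234 (4.70%), 4 of 148 (2.70%) and 2.89%. Over all 46378 regions tested, DR1 matches were found in 10.2% of the lower, 2.06% of the higher and 4.11% of all. One-sided far regions had the opposite order for DR1, with 3 of 33 KO-only (9.09%) and 3 of 63 WT-only (4.76%), and DR4 matches were found in 0 and 1 of them. The backwards control was found in 2.56% of the lower and 6.08% of the higher far regions. AP-1 matches were found in 19.2% of lower, 22.3% of higher and 15.9% of tested far regions, and CTCF matches in 1.28%, 0.676% and 2.84%. RUNX matches were found in 16 of 63 WT-only far regions (25.4%) and in 11.4% of all far regions. These shares rest on few regions, the called regions were chosen by their difference, and no test is attached.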

How the data were processed

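AMs from bronchoalveolar lavage were profiled by ATAC-seq in 4 WT and 4 KO libraries. Per the study's methods, the authors used Cutadapt for trimming and Bowtie2 for alignment to mm10, dropped duplicate and poorly aligned reads, and called peaks with MACS3 in each library apart, on read ends extended to 200 bp and at a q-value of 0.05. The lists end at this threshold, so weaker signal is not seen. The deposited files give, per peak, the fold enrichment at the summit over local background. They also give the −log10 p-value and −log10 q-value at the summit, as deposited by the authors. An integer score, deposited beside them, was not used. Summit tags were worked back from fold enrichment and −log10 p, and for 100% of peaks a whole number of tags gave the deposited −log10 p back within a relative error of 1e-05. A summit tag number is a maximum and not a total count, so intervals on it would cover counting error only, and the read depth of a library is not known from the lists.

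Peaks sharing a base were merged, and autosomal regions found in 2 or more libraries were kept. The summit was that of the peak with the highest −log10 q, and distances were measured to GENCODE M21 TSSs. A promoter was open with a peak within 1 kb of a TSS of the gene. Gene models and repeats came from the reference of the same build. Values per library were compared between KO and WT by an exact permutation test, and distance classes within libraries by exact sign-flip tests, both two-sided, with Benjamini-Hochberg adjustment. Summit tags in regions open in all 8 libraries were tested with limma 3.58.1 in R 4.3.3, checked on simulated data first. No label says that libraries come from separate mice, so p-values measure the spread between libraries, which may be technical. Libraries also share most of their regions, so sign-flip p-values over libraries do not measure chance over regions. Genes and regions were named by rule: the 10 genes and 10 stretches with most far regions, the 5 strongest, farthest, WT-only and KO-only regions, the 5 largest changes each way, and a list of AM regulators. The members and the lists were chosen with earlier results of these data known. Other limits on distance, gene types, peak strength, overlap, list length, scaling and pseudocount were tried, and each library was left out in turn.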

Additional observations from a re-analysis of the deposited data

Results flagged for a closer look

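Within each genotype, 38 sets of 4 library values were examined for a library far from the other 3 (Dixon's ratio above its 95% critical value for 4 samples), and chance alone flags about 1 set in 20. Of these sets, 2 held such a library. In KO replicate 3, the intronic share of far regions was 48.8%, while the other 3 KO libraries were at 49.4% to 49.5%. In WT replicate 1_3, C/EBP matches were found in 2.39% of far regions, while the other 3 WT libraries were at 2.43% to 2.44%. This library had the most far regions, 3097.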

How the results depend on the processing

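A far region is defined by its limit in kb and by the gene types counted, and these settings moved most values. The following are differences in percentile or percentage points, intronic less intergenic for strength, far less nearer where so named, and otherwise KO less WT in far regions. With regions over 50 kb from every TSS, intronic strength was 1.75. KO less WT was −0.0382 for PU.1, −0.0375 for C/EBP and 0.0434 for the E-box, and far less nearer was −0.0100 for DR4, −0.174 for AP-1 and −0.220 for the control. One-sided regions numbered 147 WT-only and 59 KO-only, and limma called 353 higher and 630 lower. With regions over 200 kb, KO less WT was −1.44 for the intronic share, 0.140 for DR4, −0.443 for PU.1, 0.263 for RUNX, 0.0700 for the E-box and −0.217 for CTCF. Far less nearer was 0.0664 for DR1, −0.113 for C/EBP, −0.780 for RUNX and −0.521 for the control, and intronic less intergenic was −1.01 for DR1. One-sided regions then numbered 20 WT-only and 17 KO-only, and limma called 55 each way. With TSSs of protein-coding genes only, intronic strength was 0.481, KO less WT was 0.0399 for DR4, −0.122 for PU.1 and 0.0246 for the E-box, and far less nearer was −0.230 for DR4. WT-only regions numbered 132, and limma called 304 higher and 507 lower. With TSSs of every gene type, far strength was −0.416 and intronic strength −0.464, KO less WT was 0.253 for DR1, 0.242 for DR4, −0.328 for PU.1 and 0.0333 for the E-box. One-sided regions numbered 32 WT-only and 9 KO-only, and limma called 42 higher and 108 lower. Far less nearer then was 0.0182 for RUNX, which lost its call, and 0.573 for DR4 and 0.621 for the control, which gained one. Each of these settings also changes how many far regions there are.

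Directions or calls also changed under other settings. The control, far less nearer, gained a call with TSSs of protein-coding genes only (0.188), with a −log10 q of at least 5 (0.154), with lists of equal length (0.200), and without WT replicate 4 (0.198) or KO replicate 1_3 (0.254). DR1, intronic less intergenic, lost its call with regions over 50 kb (0.0768). KO less WT was 0.0486 for the E-box with a −log10 q of at least 5, 0.00241 for DR1, 0.0943 for DR4 and −0.0110 for PU.1 with lists of equal length, and 0.0357 for the E-box with merging at 100 bp. Intronic strength was −0.423 with regions of at least 1 library. With matches within 50 bp of the summit, far less nearer was −0.0136 for DR4, −0.0111 for C/EBP and −0.221 for the control. With 1_2 and 1_3 averaged, the intronic share was −0.0827, intronic strength −0.974 and the E-box 0.00682. Under 2 alternatives chosen after seeing the data, the comprehensive transcript set gave −0.213 for the intronic share, 0.0147 for DR1 and, far less nearer, −0.0180 for the control and 0.189 for DR4, which gained a call, and averaging the agreeing KO pairs gave −0.684 for intronic strength and 77 higher and 151 lower calls (12.4% of far regions and 6.05% of all). With a replicate block, the E-box was 0.00441 and CTCF −0.0793, limma called 156 far regions higher and 244 lower, and 4371 and 3044 of all regions. Deviations of same-numbered libraries correlated at 0.0370, 0.0553 and 0.117, above the other pairs across genotypes (0.0318 at most) but small, so the numbers were not taken to pair the libraries. Leaving out 1 library at a time gave −0.156 to 0.324 for the intronic share, −1.33 to −0.700 for intronic strength, −0.159 to 0.185 for PU.1, −0.0586 to 0.0618 for the E-box, −0.165 to 0.0678 for DR1, −0.117 to 0.0739 for DR4, −0.00819 to 0.168 for CTCF, −0.0103 to 0.0678 for DR4 far less nearer, and 65 to 110 WT-only regions. The cause of these changes was not tested. Summit tags of far regions had medians of 27 to 38 per library, which limits what small changes could be seen.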

Other observations

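Other genes with several far regions that differed were found after their values were seen. All calls near Arrdc4, an arrestin family gene, were lower in KO AMs (6 of 9 tested far regions). The same held for Pde4d, a phosphodiesterase that degrades cyclic AMP (6 of 10). With Ptprc, which encodes the leukocyte surface phosphatase CD45, as the nearest protein-coding gene, 3 of 4 were higher. These lay 423.498 to 554.404 kb from its TSS. Near Myc, which had 29 far regions, 2 of 18 tested were higher and 2 lower. Of 21 genes with at least 3 called far regions, 18 had calls in 1 direction only. Over all tested far regions, 8.08% were called higher and 12.8% lower, beside 6.06% and 6.81% of all tested regions. Genes with many calls were picked out here, and neighboring far regions that differed mostly went the same way. The counts are therefore a description.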
